A study of Mus musculus with 34 samples.

Results

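Toll-like receptors (TLRs), the cytosolic NOD-like receptors and the inflammasomes are the sensors through which epithelial cells, macrophages and other cells recognise microbial products. TLRs signal through the adaptors MyD88 and TRIF and a chain of IRAK kinases to NF-kB, while an inflammasome is a complex of a sensor, the adaptor ASC and caspase-1, which matures interleukin-1β and interleukin-18. In the colon, where the microbiota is always present, these signals are held down by proteins such as IRAK-M, SIGIRR, TOLLIP and A20.

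The data describe 35 genes of this system, chosen by name and grouped by role: 11 TLRs, 4 genes of LPS and glucan recognition, 6 adaptors and kinases, 8 NOD and inflammasome genes and 6 negative regulators. The array annotation lists a probe for 31 of these genes, out of 16593 genes on the arrays. Of the 35, 30 genes passed the filter on low values and were tested, out of 14010 genes tested in all. No probe is listed for Tlr5, Tlr9, Irak4 or Nlrp6, which were not analysed here, and the probe of Tlr8 did not pass the filter and was above background in 0 of 34 arrays.

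The study followed recurrent colitis caused by the hapten trinitrobenzene sulfonic acid (TNBS) in female BALB/c mice of 8 weeks. Mice were sensitized on the skin with TNBS in ethanol on day 0 and received rectal TNBS in ethanol on days 7, 14 and 21, with a higher dose each time. RNA of the distal colon was hybridized to Illumina mouse bead arrays, with 1 array per mouse, for 4 healthy mice and 5 mice with TNBS colitis on each of days 9, 14, 16, 21, 23 and 28. Days 9, 16 and 23 lie 2 days after an instillation and days 14, 21 and 28 lie 7 days after one. The methods describe no group given ethanol alone for the arrays, so that TNBS and its vehicle cannot be told apart. All values below are log2 intensities after the authors' quantile normalization, with a floor of 2.32 (a linear value of 5), and each gene is read at the tested probe with the highest mean over all arrays (its brightest probe). Values of different genes come from different probes and are not compared in level.

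On each array, 48.5 to 52.8% of probes were above background, taken as the 95th percentile of 1326 olfactory and similar receptor probes on the same array. The number of arrays limits the precision. Of the 9 colon epithelium markers tested, at least 8 were above background in every mouse of each group. In 5 arrays (day 9 mice 2, 3 and 5, day 14 mouse 5 and day 21 mouse 5) skeletal muscle markers averaged 4.25 to 7.30 above the healthy mean. Without these arrays 2 mice of day 9 are left, and the day 9 changes of Tlr2, Tlr4, Lbp, Cd14, Clec7a and Myd88 are also given in that fit. The mean of the 8 tested neutrophil markers was 3.87 in healthy mice, 6.53 on day 9, 5.06 on day 16 and 5.85 on day 23. On the days 7 days after an instillation it was 3.90 to 4.32. In healthy mice 0 of the 8 were above background in every mouse and 2 in no mouse, so the healthy mean is partly a bound. The day 9 log2 changes of the 8 markers ranged from -0.22 to 7.40, with a median of 1.78. In whole tissue, fewer cells of a type and less RNA per cell cannot be told apart.

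Across the colitis course, few of the 30 genes, and few of all genes tested, changed. Counts this small do not set the members apart from the rest. On days 9, 16 and 23 the number of genes with an adjusted p under 0.05 (limma, Benjamini-Hochberg adjustment) was 2, 1 and 4, against 2.22%, 4.2% and 7.64% of all genes tested in the same comparisons. On days 14, 21 and 28 it was 0, where 0.507%, 0.821% and 1.41% of all genes passed and 3, 4 and 7 of the 30 had an unadjusted p under 0.05. The changed genes were the LPS carrier gene Lbp, the glucan receptor gene Clec7a, the adaptor genes Myd88 and Tirap, and, in the downward direction, the caspase gene Casp1. The call of Clec7a came from 1 of its 4 probes, which was picked by a mean that includes the colitis arrays. Its other probes did not pass. No TLR passed the test on any day, although Tlr1 did on day 23 when mouse 1 was left out, and Tlr12 on day 23 and Tlr7 on day 28 did with the mouse number as a block (adjusted p = 0.036 and 0.049). The median log2 change of the 30 genes lay between -0.16 (day 21) and 0.00 over the 6 days, and that of all genes between -0.02 and 0.

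**Figure D1:**
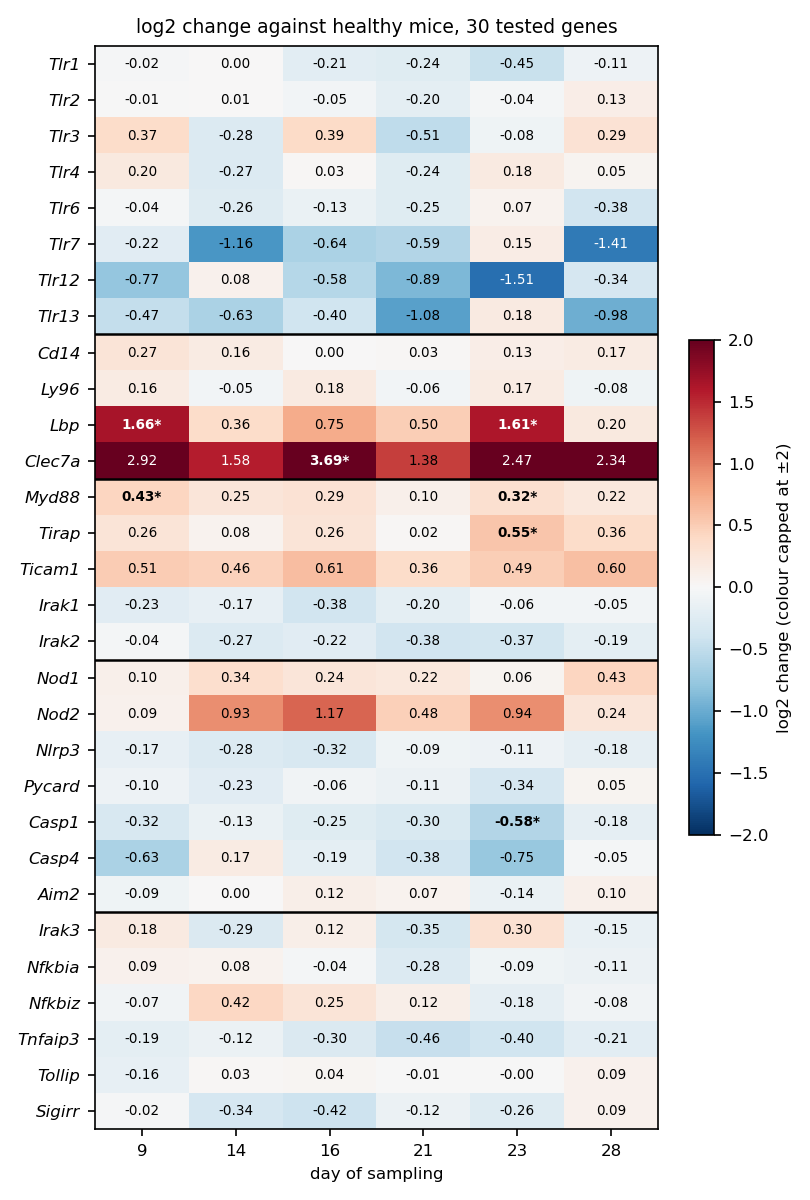
Log2 change of the 30 tested genes (rows, grouped by role with black lines between TLRs, LPS and glucan recognition, adaptors and kinases, NOD and inflammasome genes, and negative regulators) on each sampling day (columns) against 4 healthy mice, with 5 mice per day. Asterisks mark an adjusted p under 0.05 (limma), and the colour is capped at 2. Most cells lie close to 0, and the largest changes are those of Clec7a and Lbp. Genes near background also reach beyond 1, without a call: Tlr12 (-1.51, day 23), Tlr7 (-1.41, day 28), Tlr13 (-1.08, day 21) and Nod2 (1.17, day 16).

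The receptors themselves were measured with enough precision to limit the size of a change in some cases. The 95% interval of the log2 change lay within 1 in either direction on all 6 days for 21 of the 30 genes. Among them were Tlr1, Tlr2, Tlr4 and Tlr6 at the probes read. Nlrp3 was counted too, but it was above background in 0 of 34 arrays. Its narrow interval comes from the floor and limits no change. Tlr2, which senses bacterial lipoproteins together with Tlr1 or Tlr6, read 9.30, 9.22, 9.32 and 9.11 in the healthy mice. On day 9 it read 9.36, 8.98, 8.88, 9.78 and 9.16, and on day 23 it read 9.72, 8.87, 8.83, 9.30 and 9.31. The mice of both days lay on either side of the healthy values. The change was -0.01 on day 9 (95% interval -0.42 to 0.40) and -0.04 on day 23 (-0.45 to 0.37), and the means of the 7 groups spanned 0.33. Without the 5 arrays with muscle markers the day 9 change was 0.33 (limma adjusted p = 0.63).

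Tlr4, the signalling receptor for LPS, read 7.70, 7.50, 7.33 and 7.12 in the healthy mice and 7.84, 7.22, 7.58, 7.76 and 7.66 on day 9. Its change was 0.20 on day 9 (95% interval -0.17 to 0.57) and 0.18 on day 23 (-0.19 to 0.55), with overlapping groups. The day 9 change was 0.39 without the arrays with muscle markers (limma adjusted p = 0.49). A dimmer Tlr4 probe gave changes of 1.34 on day 9, 1.70 on day 16 and 1.39 on day 23, none of which passed the test (limma adjusted p = 0.27, 0.11 and 0.17). It was above background in 0 of 4 healthy mice and in 2, 3 and 1 of 5 mice on those days, so that its healthy level is only a bound. On days 16 and 23 the values of this dimmer probe did not overlap with the healthy ones, while on day 9 they did. Its 95% intervals reached beyond 1 on days 9, 16 and 23. The 2 Tlr4 probes thus gave changes of different size.

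Tlr1 and Tlr6 pair with Tlr2. Tlr1 averaged 8.05 ± 0.24 (SD, n = 4) in healthy mice and 7.61 ± 0.38 (n = 5) on day 23, a difference of -0.45 that did not pass the test (limma adjusted p = 0.11). Without day 23 mouse 1, the highest of its group, the difference was -0.55 with an adjusted p of 0.041. Tlr6 averaged 7.31 ± 0.26 in healthy mice and between 6.94 and 7.38 on the 6 days, with no difference past the threshold.

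The endosomal receptors lay close to background. Tlr3, which senses double-stranded RNA, was above background in 20 of 34 arrays, Tlr7, which senses single-stranded RNA, in 18, Tlr13, a receptor for bacterial ribosomal RNA in mice, in 22, and Tlr12, a receptor for protozoan profilin in mice, in 9. Tlr7 read 5.08, 4.86, 5.49 and 5.31 in the healthy mice, all above background. On day 28 it read 3.83, 2.32, 4.15, 3.80 and 4.75, none above background. These groups did not overlap, but the difference of -1.41 (SE 0.47) did not pass the test over all genes (limma adjusted p = 0.14), and the level on day 28 is a bound. Tlr12 had its lowest mean on day 23, at 2.99 ± 0.73 against 4.49 ± 0.42 in healthy mice, with an adjusted p of 0.13. For Tlr3, Tlr7, Tlr12 and Tlr13 the intervals reached beyond 1 on at least 1 day, so that a 2-fold change lay within them.

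In LPS recognition, LBP carries LPS to CD14, which hands it to the complex of TLR4 and MD-2 (Ly96). Lbp was the member of this group that rose on more than 1 day. It read 5.74, 7.14, 5.93 and 4.93 in the healthy mice. On day 9 it read 7.92, 6.58, 7.60, 7.65 and 8.21. On day 23 it read 9.05, 6.71, 7.58, 7.11 and 7.30. Healthy mouse 2 lay above day 9 mouse 2 and above day 23 mice 2 and 4, so both days overlapped with the healthy group. The log2 change was 1.66 on day 9 (SE 0.42, limma adjusted p = 0.033), which is 3.15-fold, and 1.61 on day 23 (SE 0.42, adjusted p = 0.015).

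The day 9 call of Lbp rests on few mice. Its adjusted p was 0.062 to 0.13 when healthy mouse 1, 3 or 4 or day 9 mouse 1, 3 or 5 was left out, with changes between 1.32 and 2.06 over all 9 fits that left out 1 mouse, and it was 0.11 without the 5 arrays with muscle markers, where the change was 1.85. The day 23 call was lost without healthy mouse 1 (1.55, adjusted p = 0.055) and without healthy mouse 4 (1.28, adjusted p = 0.083). In a fit on only the healthy arrays and those of the day, Lbp passed on neither day (limma adjusted p = 0.23 on day 9 and 0.19 on day 23). On day 16 Lbp read 6.40, 6.37, 7.14, 6.90 and 6.60, a change of 0.75 that did not pass the test.

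Neither Cd14, the LPS co-receptor gene, nor Ly96 passed the test on any day. Cd14 read 10.09, 10.55, 9.66 and 9.86 in healthy mice and 9.89, 10.30, 10.16, 10.70 and 10.47 on day 9. On day 23 it read 11.74 in mouse 1 and 9.25, 9.84, 9.86 and 10.17 in the others. The highest value on day 23 belonged to the mouse that was also the highest for Lbp, Ly96, Tirap and Sigirr, and the groups overlapped on both days. The change of Cd14 was 0.27 on day 9 and 0.13 on day 23, with a 95% interval from -0.48 to 0.75 on the latter, and the day 9 change was 0.26 without the arrays with muscle markers. Ly96 averaged 7.30 ± 0.31 in healthy mice and between 7.22 and 7.48 on the 6 days.

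Clec7a encodes dectin-1, the receptor for fungal β-glucan on macrophages, dendritic cells and neutrophils. Its brightest probe read 2.45, 5.08, 4.66 and 5.21 in the healthy mice, of which 3 of 4 were above background. On day 16 it read 7.17, 8.18, 7.33, 8.52 and 8.99, and these groups did not overlap. The change of 3.69 (SE 0.89) passed the test (limma adjusted p = 0.016). On day 9 it read 9.10, 5.25, 5.84, 7.16 and 8.97, a change of 2.92 with an adjusted p of 0.08 that was 0.032 without day 9 mouse 2 (3.42) and 0.12 without the arrays with muscle markers (3.78). On day 23 mouse 1 read 2.93, close to the floor, and the other mice read 7.15, 6.15, 8.05 and 9.81, for a change of 2.47 (adjusted p = 0.092) that was 3.44 (adjusted p = 0.0044) without mouse 1 and 2.28 (adjusted p = 0.045) with a floor of 20.

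The 4 probes of Clec7a disagreed, and the call on day 16 rests on which one is read. The probe read here has the highest mean over all arrays but the lowest in healthy mice, at 4.35 against 5.05, 4.95 and 5.37 for the others, so its rank comes from the colitis arrays in which it is high. On day 16 the other 3 probes gave changes of 0.17, 0.81 and -0.43 and none passed the test. With the mean of the 4 probes in place of this one, the change on day 16 was 1.06 (adjusted p = 0.22), and without healthy mouse 1, in which this probe read 2.45, the adjusted p was 0.094 for a change of 3.06. Day 9 mice 1 and 5 and day 23 mouse 5 were the highest of their groups on 3 of the 4 probes, this one among them. The table does not state which transcripts the probes reach.

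**Figure D2:**
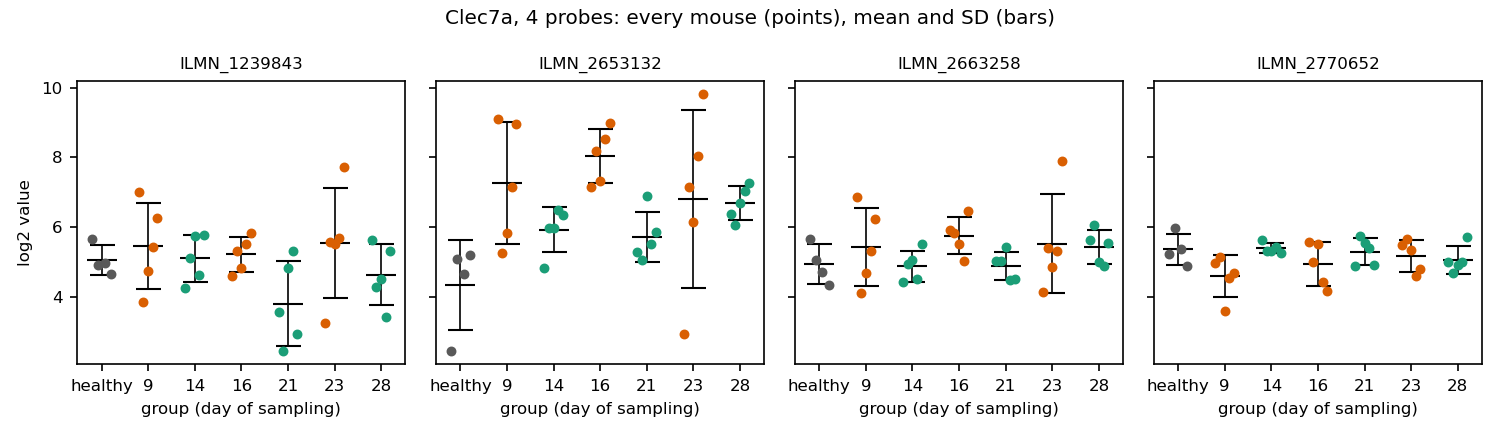
Log2 value of the 4 Clec7a probes in every mouse (points; grey healthy, orange 2 days and green 7 days after an instillation) with the group mean and SD (bars), by sampling day. The probe read for the gene (ILMN_2653132), which has the lowest healthy mean of the 4 (4.35), reaches 8.04 on day 16, while the other 3 differ from healthy by 0.17, 0.81 and -0.43 on that day.

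Of the adaptors, Myd88, which links all TLRs except TLR3 and also the interleukin-1 receptors to the IRAK kinases, rose on days 9 and 23. It read 10.46, 10.72, 10.55 and 10.56 in healthy mice. On day 9 it read 11.06, 10.76, 11.03, 11.20 and 10.99, and on day 23 it read 11.12, 10.75, 10.86, 10.87 and 10.87. Every mouse of both days lay above every healthy mouse, with narrow gaps to healthy mouse 2. The change was 0.43 on day 9 (SE 0.10, limma adjusted p = 0.018) and 0.32 on day 23 (SE 0.10, adjusted p = 0.047). The sizes are 1.35-fold and 1.25-fold. Without the arrays with muscle markers the day 9 change was 0.56 (adjusted p = 0.032). On day 9 the call was lost without healthy mouse 1, 3 or 4, with a highest adjusted p of 0.079. On day 23 it was lost in 7 of 9 such fits, with a highest adjusted p of 0.15. These left out healthy mouse 1, 3 or 4 or day 23 mouse 1, 3, 4 or 5. A fit on only the healthy arrays and those of the day lost both calls (limma adjusted p = 0.17 on day 9). On day 23 the call was also lost with the mouse number as a block, with a highest adjusted p of 0.14 over these 2 fits.

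Promoters are shown for Casp1, Irak3 and Myd88. Among members in the RefSeq promoter table used here, these had the smallest p in an F-test over the 7 groups. Lbp had a smaller one but has no entry there. The 250 bases before the start of Myd88 are given first. They lie on GRCm38.p6 at chr9:119340019-119340268, minus strand, and come from RefSeq. Capitals mark a TTCNNNGAA match, the palindrome bound by STAT factors, at -46 to -38, and a match to the repeat bound by interferon regulatory factors (GAAA, any 2 bases, GAAA) at -40 to -31, which overlap.
Myd88: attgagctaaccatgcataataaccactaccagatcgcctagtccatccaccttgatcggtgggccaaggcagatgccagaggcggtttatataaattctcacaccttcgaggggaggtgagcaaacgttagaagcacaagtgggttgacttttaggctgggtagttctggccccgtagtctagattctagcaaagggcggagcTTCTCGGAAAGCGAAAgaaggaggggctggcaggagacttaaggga
On both strands, TTCNNNGAA was found in 7.02% and the GAAA repeat in 2.98% of 32851 windows of 250 bases before the listed mouse starts.

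Tirap, the adaptor that brings MyD88 to TLR2 and TLR4, rose on day 23. It read 8.26, 8.09, 7.92 and 7.79 in healthy mice and 9.38, 8.21, 8.42, 8.56 and 8.26 on day 23. Mouse 1 was far above the others, and mouse 2 lay below healthy mouse 1, so the groups overlapped. The change was 0.55 (SE 0.16, limma adjusted p = 0.035). Without day 23 mouse 1 it was 0.35 (adjusted p = 0.086), and the call was also lost without healthy mouse 2, 3 or 4 or day 23 mouse 4 (highest adjusted p = 0.12). The other 2 Tirap probes gave 0.34 and 0.48 and did not pass the test, and the mean of the 3 probes gave 0.46 (adjusted p = 0.13). A fit on only the healthy and day 23 arrays also lost the call (limma adjusted p = 0.31).

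Ticam1, which encodes TRIF, the adaptor of TLR3 and TLR4 in endosomes, averaged 5.82 ± 0.28 in healthy mice and between 6.18 and 6.43 on the 6 days. Its change reached 0.61 on day 16, where the groups did not overlap, with an adjusted p of 0.068 that was 0.045 with a floor of 20. A second Ticam1 probe gave -0.05 on that day. Irak1 and Irak2, the kinases that act after MyD88, had means below the healthy ones on all 6 days, with changes of -0.38 to -0.05 for Irak1 and -0.38 to -0.04 for Irak2, none of which passed the test.

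**Figure D3:**
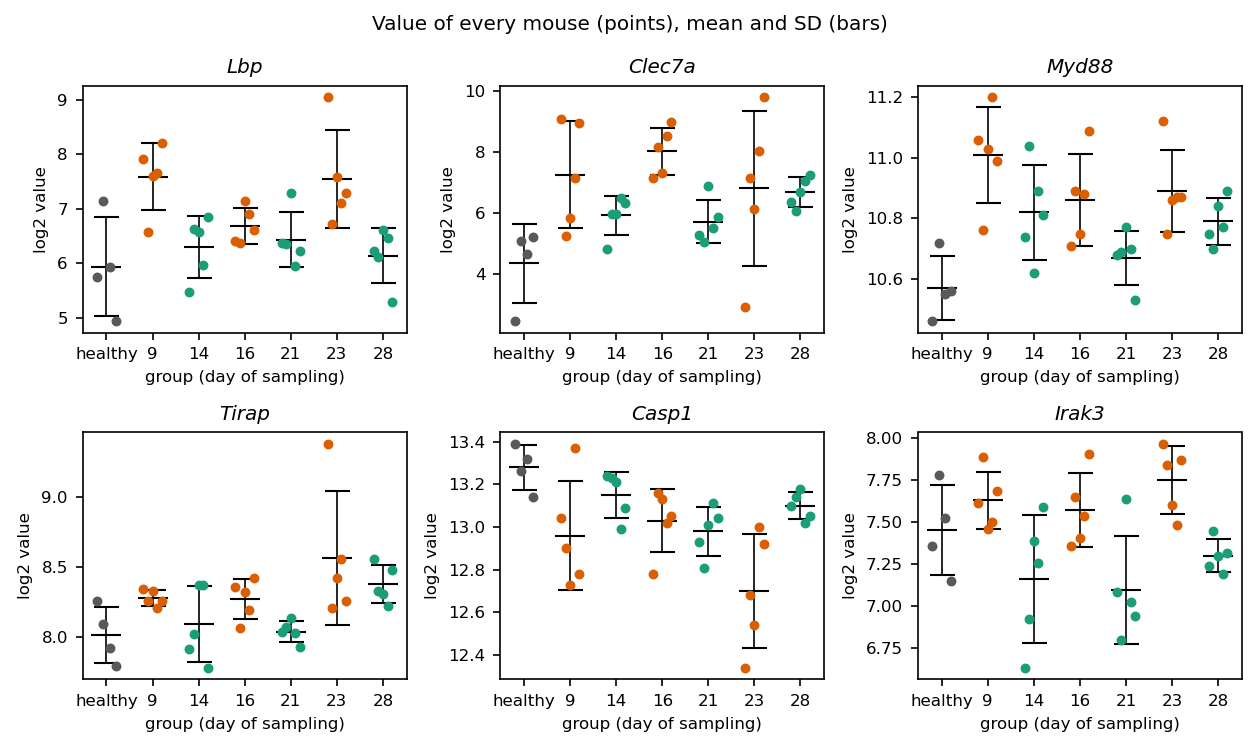
Log2 value of the 6 genes that passed the test in at least 1 comparison, in every mouse (points; grey healthy, orange 2 days and green 7 days after an instillation), with the group mean and SD (bars), by sampling day; each panel has its own axis. The 5 day 23 values of Casp1 (12.3 to 13.0) lie below all 4 healthy values (13.1 to 13.4), and day 23 mouse 1 is the highest mouse for Lbp (9.05) and Tirap (9.38).

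Among the 7 tested NOD and inflammasome genes only Casp1 passed the test against healthy mice, on day 23, and it fell. On that day 7.64% of all genes passed, so 1 call among 7 genes does not set the group apart. Casp1, the protease that matures interleukin-1β, read 13.39, 13.26, 13.32 and 13.14 in healthy mice and 12.34, 12.68, 12.54, 13.00 and 12.92 on day 23. All day 23 mice lay below all healthy mice. The log2 change was -0.58 (SE 0.12, limma adjusted p = 0.0033), with the healthy level 1.5-fold that of day 23. It passed the test in each of 9 fits that left out 1 mouse, with changes between -0.66 and -0.49, but not in a fit on the healthy and day 23 arrays alone (adjusted p = 0.089). On day 9 Casp1 read 13.04, 12.90, 12.73, 13.37 and 12.78, a change of -0.32 that did not pass the test (adjusted p = 0.19), and on day 28 it was -0.18. The lowest day 9 values were those of mice 2, 3 and 5, whose arrays had muscle markers.

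The 250 bases before the Casp1 start are shown by the same rule as those of Myd88. They lie on GRCm38.p6 at chr9:5298267-5298516, plus strand, and come from RefSeq. Capitals mark a match to GAGGAA, the core bound by the myeloid factor PU.1, on the minus strand at -108 to -103.
Casp1: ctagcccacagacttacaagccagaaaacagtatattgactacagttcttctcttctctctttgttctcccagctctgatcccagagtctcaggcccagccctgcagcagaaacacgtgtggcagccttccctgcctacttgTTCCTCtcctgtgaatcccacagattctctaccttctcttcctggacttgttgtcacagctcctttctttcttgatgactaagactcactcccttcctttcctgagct
GAGGAA was found in 23.3% of the 32851 windows, on either strand.

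Casp4, which encodes the caspase that binds LPS in the cytosol, read 9.72, 10.12, 9.53 and 9.41 in healthy mice and 9.06, 8.48, 8.72, 9.16 and 9.30 on day 23. The groups did not overlap, and the difference of -0.75 (SE 0.25) did not pass the test (limma adjusted p = 0.068). It was called with a floor of 20 (adjusted p = 0.046) and without the 5 arrays with muscle markers (adjusted p = 0.031). The other 2 Casp4 probes gave -0.50 and 0.10 on day 23. Casp1 and Casp4 are neighbours on chromosome 9 and are known to be expressed in colon epithelium as well as in myeloid cells. The mean of the epithelium markers was 11.63 in healthy mice and 11.51 on day 23, and its part in the result was not tested.

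Pycard (ASC), the inflammasome adaptor gene, averaged 7.89 ± 0.23 in healthy mice and 7.55 ± 0.28 on day 23, a difference of -0.34 that did not pass the test. Aim2, the sensor of cytosolic DNA, stayed between 8.56 and 8.82 in its group means. Nlrp3, the sensor of the most studied inflammasome, was above background in 0 of 34 arrays at its tested probe, so it was not above background in these colons and its values give only a bound. Nod1, which senses a peptidoglycan fragment of mainly Gram-negative bacteria, was 0.43 above healthy on day 28 (adjusted p = 0.27). Nod2, the sensor of muramyl dipeptide, was above background in 15 of 34 arrays and its intervals were wide, with a largest change of 1.17 on day 16 (95% interval 0.09 to 2.25, adjusted p = 0.24).

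None of the 6 negative regulators passed the test against healthy mice on any day. Of all genes tested, 0.507% (day 14) to 7.64% (day 23) did, so no call among 6 genes does not set them apart. Tnfaip3, which encodes the ubiquitin-editing enzyme A20, averaged 9.33 ± 0.11 in healthy mice and was -0.46 on day 21 and -0.40 on day 23 (limma adjusted p = 0.25 and 0.18). Nfkbia, the gene of the NF-kB inhibitor IκBα and itself a target of NF-kB, had changes between -0.28 and 0.09. Nfkbiz, Tollip and Sigirr had adjusted p-values above 0.05 on all 6 days, and Tollip, an inhibitor of IRAK1, had group means within 0.25 of each other.

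**Figure D4:**
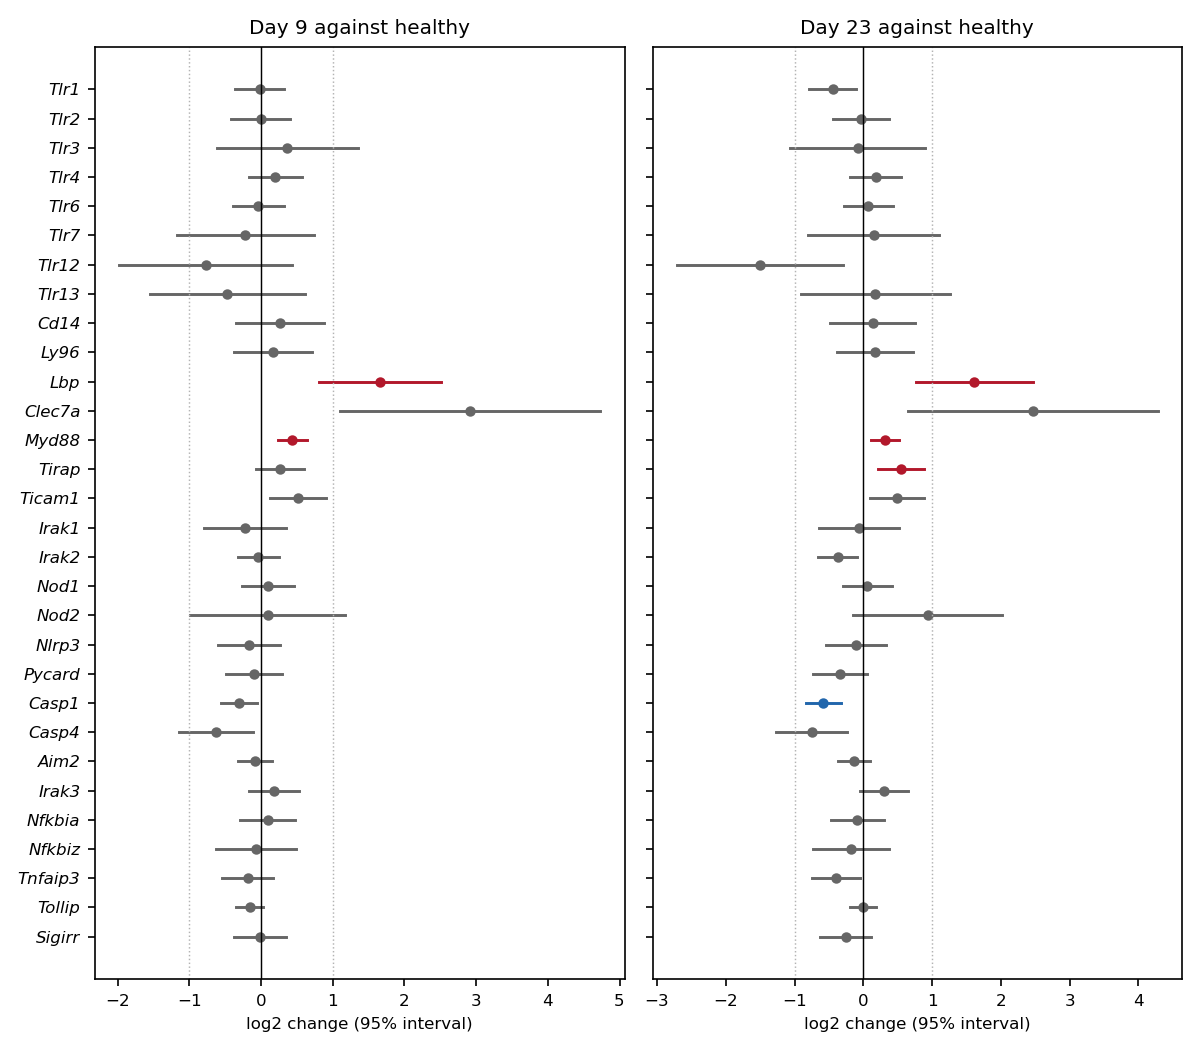
Log2 change of the 30 tested genes against healthy mice (points) with its 95% interval from limma (lines) on day 9 (left) and day 23 (right); red marks genes called higher and blue genes called lower at an adjusted p under 0.05, and dotted lines mark changes of 1. Lbp, at 1.66 and 1.61, is higher on both days, and Tlr2 lies at -0.01 and -0.04.

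The time since the last instillation was the other axis of the design. When the 3 groups taken 2 days after an instillation were set together against the 3 taken 7 days after one, 2 of the 30 genes passed the test, against 6.34% of all genes tested. Lbp averaged 7.28 at 2 days and 6.29 at 7 days, a difference of 0.98 (SE 0.23, limma adjusted p = 0.008). Irak3 averaged 7.65 and 7.19, a difference of 0.46 (SE 0.09, adjusted p = 0.0023). Both stayed past the threshold in each of 30 fits that left out 1 mouse and under all 8 other alternatives.

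Irak3 encodes IRAK-M, a kinase-dead member of the IRAK family that is found mainly in monocytes and macrophages and dampens TLR signals. It read 7.61, 7.89, 7.46, 7.50 and 7.69 on day 9, and 6.63, 6.93, 7.39, 7.26 and 7.59 on day 14. It read 7.36, 7.65, 7.41, 7.53 and 7.90 on day 16, and 7.08, 6.80, 7.64, 7.03 and 6.94 on day 21. It read 7.97, 7.84, 7.60, 7.48 and 7.87 on day 23, and 7.24, 7.45, 7.30, 7.19 and 7.32 on day 28. Within each pair of days the groups overlapped after the first and the second instillation, while all 5 day 23 mice lay above all 5 day 28 mice. The healthy mice read 7.36, 7.78, 7.52 and 7.15, and their mean of 7.45 lay between the means at 2 days (7.63, 7.57 and 7.75) and those at 7 days (7.16, 7.10 and 7.30).

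The 250 bases before the first of 2 listed Irak3 starts are shown by the same rule as those of Myd88. They lie on GRCm38.p6 at chr10:120201598-120201847, minus strand, and come from RefSeq. None of the 4 motifs searched had a match in this window, so no base is in capitals.
Irak3: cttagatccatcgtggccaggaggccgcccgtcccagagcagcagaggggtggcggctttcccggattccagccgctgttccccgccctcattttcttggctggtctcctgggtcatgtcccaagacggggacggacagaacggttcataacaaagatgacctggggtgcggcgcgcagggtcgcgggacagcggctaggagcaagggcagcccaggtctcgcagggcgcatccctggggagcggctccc
The fourth motif, the NF-kB consensus, was found before a listed start of 7 of the 28 members with a promoter in the table. These were Tlr2, Tlr3, Casp4, Tnfaip3, Nlrp3, Nfkbia and Irak1. It was found in 7.25% of all windows. The 28 members have 38 windows, and a member counts if any of its windows matches, so the 2 shares are not alike. None of these 7 genes passed a test in any comparison, and neither did most other tested members.

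Several macrophage genes moved with Irak3 in this comparison, in which 6.34% of all genes passed the test. Of the 11 tested monocyte and macrophage markers, 4 were higher at 2 days than at 7 days: Cd163 by 1.53 (limma adjusted p = 5.4e-05), Mrc1 by 0.95 (0.00036), Fcgr1 by 0.80 (0.037) and C1qb by 0.42 (0.028). The mean of the list ranged from 7.48 to 8.65 over the mice of day 23 and from 7.20 to 7.70 over those of day 28, against 7.63 to 7.91 in healthy mice. Of the 8 tested neutrophil markers, 3 were higher, among them S100a9 by 5.03. Of the 5 smooth muscle markers, 3 were lower at 2 days than at 7 days (Myh11 by -0.56, Tagln by -0.57 and Des by -0.31), with a median of -0.56 over the list. Of the 6 tested B and plasma cell markers, 2 were lower (Mzb1 by -0.75 and Tnfrsf17 by -1.04), with a median of -0.45, while the median of all genes was -0.01. The part of these cells in the difference of Irak3 was not tested.

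Of the 8 tested TLRs, 5 had a positive difference in this comparison and none passed the test at the probe read for the gene. Tlr7 was 0.82 higher at 2 days than at 7 days (95% interval 0.30 to 1.34, limma adjusted p = 0.054), Tlr4 was 0.29 higher (0.09 to 0.49, adjusted p = 0.079), and Tlr6 was 0.26 higher (0.07 to 0.46, adjusted p = 0.1). Tlr4 passed the test with the mean of its 2 probes (0.65, adjusted p = 0.029), and Tlr7 passed with a pseudocount of 16 (0.45, adjusted p = 0.048) and with the mouse number as a block (adjusted p = 0.027). The difference of Casp4 was -0.44 (adjusted p = 0.057). Tlr2 differed by -0.01 (95% interval -0.24 to 0.21) and Cd14 by 0.02 (-0.32 to 0.35).

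**Figure D5:**
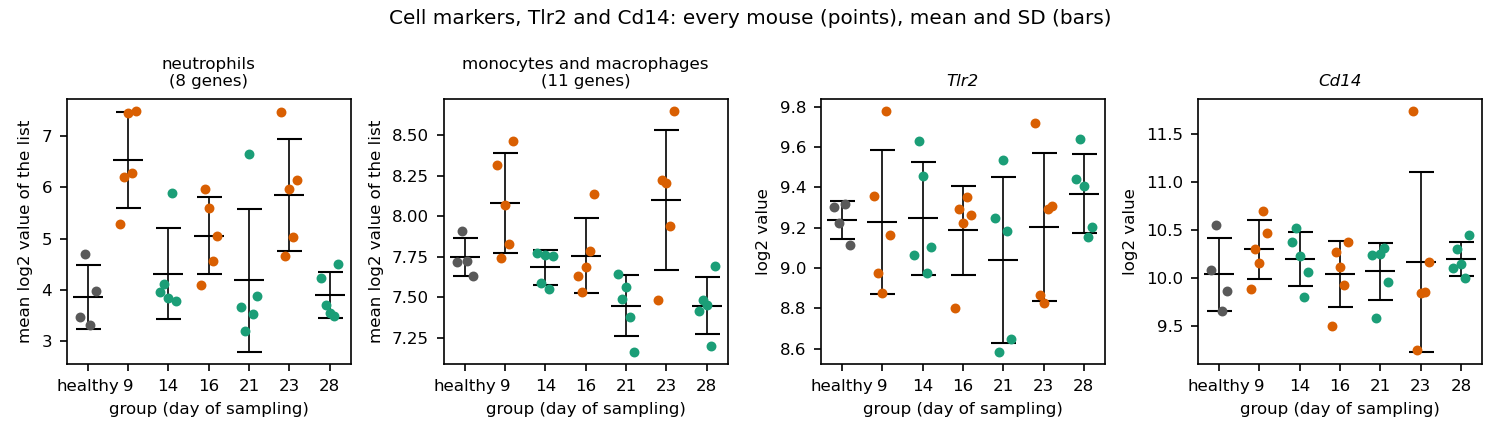
Mean log2 value of the neutrophil and the monocyte and macrophage markers, and the log2 values of Tlr2 and Cd14, in every mouse (points; grey healthy, orange 2 days and green 7 days after an instillation) with the group mean and SD (bars), by sampling day; each panel has its own axis. The neutrophil mean goes from 3.87 in healthy mice to 6.53 on day 9. In healthy mice 0 of the 8 neutrophil markers were above background in every mouse. The group means of Tlr2 stay between 9.04 and 9.37 and those of Cd14 between 10.04 and 10.30.

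Repeated instillation gave no difference past the threshold among these genes. Day 23 against day 9, the third against the first instillation at 2 days, gave 0 of 30 genes (0.178% of all genes; 3 of the 30 had an unadjusted p under 0.05). Day 28 against day 14 gave 0 of 30 (0.0143% of all genes; 1 with an unadjusted p under 0.05). Lbp differed by -0.04 between days 23 and 9 and Myd88 by -0.11. The difference of Casp1 between these days was -0.27 (limma adjusted p = 0.46) and that of Tlr1 was -0.42 (adjusted p = 0.37). Both include the day 9 arrays with muscle markers. On day 9, Casp1 read 12.90, 12.73 and 12.78 in mice 2, 3 and 5, whose arrays had these markers. Mice 1 and 4 read 13.04 and 13.37. An F-test over the 7 groups passed for 4 of the 30 genes (7.42% of all genes), namely Lbp (adjusted p = 0.019), Casp1 (0.037), Irak3 (0.037) and Myd88 (0.048).

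Genes that surround these members were read as well, with calls over all genes tested (limma). Of 15 tested TLR accessory proteins and downstream kinases, 2 passed on day 16 (4.2% of all genes did), 3 on day 23 (7.64%) and 1 on day 28 (1.41%). Traf6, the ubiquitin ligase that acts after the IRAK kinases, rose on days 16, 23 and 28 by 0.35, 0.45 and 0.45 (adjusted p = 0.036, 0.0036 and 0.013). On day 23 Tnip1, a partner of A20, fell by 0.57 and Peli1, an IRAK ubiquitin ligase, fell by 0.51, and on day 16 Tab1, a partner of the kinase TAK1, fell by 0.41. Of 10 tested NF-kB and IRF factors, 1 passed on each of days 9, 16 and 28 (2.22%, 4.2% and 1.41% of all genes). On day 23, 3 passed (7.64% of all genes). Bcl3, an atypical IκB protein, rose on days 9, 16, 23 and 28 by 1.37, 0.96, 1.18 and 1.12 (adjusted p = 0.00036 to 0.0067), with no overlap with the healthy mice. Rela and Nfkbie rose on day 23 by 0.32 and 0.69.

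Of 13 tested inflammasome partners, 2 passed the test on day 9 (2.22% of all genes did), 1 on day 16 (4.2%), 1 on day 23 (7.64%) and 1 on day 28 (1.41%), all of them higher than in healthy mice. Il1b, the substrate of caspase-1, rose by 3.07 on day 9 (SE 0.68, limma adjusted p = 0.015) and by 2.32 on day 23 (SE 0.68, adjusted p = 0.035). Gsdmd, the pore-forming protein that caspases cleave, rose on days 9, 16 and 28 by 0.48, 0.47 and 0.49. None of the 6 tested cytosolic nucleic acid sensors passed in any comparison. Of 7 tested genes of the C-type lectin receptor pathway, 1 passed between 2 and 7 days (6.34% of all genes) and none in the other comparisons of 2 groups. This gene, Clec4d, was higher at 2 days than at 7 days by 3.18 (adjusted p = 0.00068), and it was above background in 17 of 34 arrays.

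Day 23 mouse 1 stood apart in many of these genes. It was the highest of its group for 14 of the 30 genes and the lowest for 5, and for 8 genes it lay more than 1 from the median of the other 4 mice, against 0 to 5 genes for the other 33 arrays. It was high for Cd14 (11.74), Lbp (9.05), Tirap (9.38), Ly96 (8.47) and Sigirr (8.37) and low for Clec7a (2.93), Tlr3 (3.44) and Nod1 (8.37). Its mean neutrophil marker value was 7.45, the highest of day 23, and its mean monocyte and macrophage value was 7.48, the lowest of day 23. Its mean values of the T cell (3.72), B and plasma cell (4.89) and smooth muscle markers (9.50) were the lowest of all 34 arrays. The part of these cells in its values was not tested. Without it, 5 of the 30 genes passed the test on day 23 in place of 4, with Clec7a, Tlr1 and Sigirr gained and Myd88 and Tirap lost.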

How the data were processed

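Illumina mouse bead arrays of 1 colour measured distal colon RNA of 34 mice, which the labels number within each group, and the study's methods describe them as separate animals. The labels name Trizol with RNeasy columns for the RNA, the paper names Nucleospin columns, and GenomeStudio stands in the submitters' processing notes. The deposited log2 values were background subtracted and quantile normalized by the authors, and their log2 scale, which the table does not state, was inferred from the values (0 to 15.6). A further 68 columns of deposited signals and detection p-values carry only chip positions and could not be tied to mice, and these were not used, so neither the chip nor the authors' detection calls entered.

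Values were floored at a linear 5, and a probe was kept if above it in at least 4 arrays, which left 21110 of 25697 probes. Limma 3.58.1 in R 4.3.3 (lmFit, eBayes) was fitted to the 7 groups of arrays at once (27 residual degrees of freedom), as the authors used limma, and the Benjamini-Hochberg method adjusted p-values over all tested probes within each comparison, with calls under 0.05. A gene was read at its brightest tested probe (by the mean over all arrays). Of all probes, 23978 had 1 gene symbol and 1719 had none. The named genes are the members with a call, those named for their role or their smallest p, and list genes with a call. The members and lists were chosen with earlier results of these data known. The fit was tested on simulated data. Within groups, arrays correlated at 0.943 to 0.971 and none were identical. Sequences come from a RefSeq promoter table (GRCm38.p6), which held 28 of the 35 genes. Alternatives were another floor, a pseudocount, no filter, a fit per pair of groups, 75th percentile centring, the mean of a gene's probes, a block for mouse number, leaving out each array, and, chosen after seeing the data, leaving out the 5 arrays with muscle markers.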

Additional observations from a re-analysis of the deposited data

Results flagged for a closer look

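In each group of 4 or 5 mice, the gap between the highest or lowest mouse and its neighbour was set against the range of the group by Dixon's test. Of 209 groups of the 30 genes, 13 had a mouse that stood apart. A rate of 1 in 20 gives about 10.4, but it does not hold for groups with mice tied at the floor, such as those of Nlrp3. Thus 13 cannot be set against 10.4 as a test of chance. Day 23 mouse 1 accounted for 3 of the 13, with Tlr3 at 3.44, Nod1 at 8.37 (lowest) and Ly96 at 8.47 (highest). Day 16 mouse 1 was lowest for Tlr2 (8.80) and Nod2 (4.09). Nod2 was at the floor of 2.32 in healthy mouse 1 and, as the only one of its group, in day 21 mouse 1 (2.32). Tlr1 was lowest in day 21 mouse 3 (7.28), Tlr7 was highest in day 9 mouse 5 (5.92), and Ly96 was highest in day 9 mouse 4 (8.14). Nlrp3 stood above a group otherwise at the floor in day 14 mouse 3 (2.49), day 21 mouse 4 (3.43) and day 23 mouse 3 (3.36), none of which was above background.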

How the results depend on the processing

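No value with a call in the main fit reversed its sign under any alternative. Sign changes of values without a call were not counted. Of the values of single genes, 5201 kept their side of the threshold, 34 lost a call and 36 gained one. With a floor of 20 the count of changed genes was 2 on day 16, where Ticam1 was gained, 6 on day 23, where Clec7a and Casp4 were gained, and 5 between 2 and 7 days after an instillation, where Clec7a, Myd88 and Casp4 were gained. With a pseudocount of 16 the latter count was 4, with Tlr7 and Casp4 gained. A fit on only the groups of a comparison gave 0 on day 9 and 0 on day 23, where the adjusted p of Casp1 was 0.089, and the mean of a gene's probes gave 0 on day 16, where Clec7a was lost, and 3 on day 23, where Tirap was lost (adjusted p = 0.13, and 0.31 in the fit on only these groups), and Tlr4 was gained between 2 and 7 days. Without the 5 arrays with muscle markers the count was 1 on day 9, where Lbp was lost, and 2 in the F-test. Leaving out 1 array gave counts of 0 to 3 on day 9, 0 to 1 on day 16, 1 to 5 on day 23, 2 to 4 between 2 and 7 days, 1 to 5 in the F-test and 0 to 0 in the other comparisons. The lowest day 9 count came without healthy mouse 1, 3 or 4, the lowest day 16 count without healthy mouse 1, the lowest day 23 count without healthy mouse 4, and the lowest F-test counts without healthy mouse 3 or day 21 mouse 1. With the mouse number as a replicate block the count on day 28 was 1 (Tlr7), on day 23 Myd88 was lost and Tlr12 gained, and Tlr7 was gained between 2 and 7 days. Mice of the same number are different animals, and their deviations from the group means correlated at -0.13 to 0.15 (median 0.01). Whether they shared a chip or a processing step is not given in the labels and was not tested. The fit from the separately deposited signals with the chip as a block was not run, since those columns could not be tied to mice. Dim probes limit Tlr3, Tlr7, Tlr12, Tlr13, Nod2 and Nlrp3.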
